A study of Mus musculus with 2 samples.

Results

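Secreted Wnt inhibitors and Wnt pathway genes were followed in single cells of the mouse retinal pigment epithelium (RPE), the pigmented layer behind the photoreceptors. The 8 genes were chosen by symbol among the 27998 genes listed in the count matrices: the secreted inhibitors Sfrp5, Sfrp1, Frzb and Dkk3, the Wnt secretion factor Wls, the feedback target Axin2, and the nuclear factors Lef1 and Tcf7l2. Cells came from 2 male C57BL/6J mice, R1 and R2, labelled 4-5 weeks old and collected at postnatal day 36, with no treatment and no second genotype. Both eyes of a mouse were pooled, RPE sheets were freed with trypsin, and single cells that took up calcein and excluded DAPI were sorted before droplet capture. One library per mouse gives no technical replicate. The p-values over the 2 mice rest on counting error and on a spread estimated with information from all tested genes. They measure the spread between mice poorly.

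Wnt proteins leave a cell with the help of the carrier Wls and bind Frizzled receptors with an Lrp co-receptor, which stabilises beta-catenin. Beta-catenin then acts with Tcf and Lef factors on targets such as Axin2, which feeds back to lower beta-catenin. Sfrp proteins and Frzb resemble the Wnt-binding part of Frizzled and capture the ligand outside the cell, whereas Dkk3 is a divergent member of the Dickkopf family whose effect on the pathway varies with context. In the developing eye Wnt signaling takes part in setting RPE identity and in patterning the eye margin.

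Cells were divided by Ttr, the transthyretin transcript that dominates the RPE. Cells with at least 5% of their unique molecular identifiers (UMIs, 1 per captured transcript) from Ttr were called mature, and cells below 3% were called low-Ttr. R1 gave 2611 mature and 59 low-Ttr cells, R2 gave 2828 and 19, and 0 cells of either mouse lay between. The lowest mature cell held 5.14% and the highest low-Ttr cell 2.66%. Mature cells had median totals of 8433 UMIs in R1 and 7687 in R2, and low-Ttr cells 3200 and 3836. The 8 RPE markers summed to 383 and 444 UMIs per 10000 in mature cells of R1 and R2 and to 35.3 and 25.7 in low-Ttr cells, and 7 of the 8 were found in low-Ttr cells of each mouse. The 7 pigment genes ran the other way, at 17.7 and 12.1 in mature and 222 and 186 in low-Ttr cells. Of the low-Ttr cells, 3 in R1 and 2 in R2 carried at least 3 fibroblast markers, 2 and 1 carried microglia or macrophage markers, and 54 and 16 carried neither. In R1 the RPE markers summed to 24.5 in the fibroblast-marked cells, 43.8 in the microglia-marked or macrophage-marked cells and 35.6 in cells with neither. In R2 these sums were 10.4, 6.74 and 28.8. Finding an RPE marker in a low-Ttr cell is therefore no proof that the cell made it, and the part of RNA from outside the cell was not measured. The libraries shared 12 cell barcodes.

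In GENCODE (GRCm38) all 8 are protein-coding genes. Sfrp5 (chr19:42197971-42202252, minus strand) and Tcf7l2 (chr19:55741820-55933654, plus) lie on chromosome 19, Wls (chr3:159839672-159938664, plus) and Lef1 (chr3:131110471-131224356, plus) on chromosome 3. Sfrp1 lies at chr8:23411502-23449632 (plus), Dkk3 at chr7:112116017-112159057 (minus), Frzb at chr2:80411970-80447625 (minus) and Axin2 at chr11:108920349-108950783 (plus).

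The windows upstream of the most abundant of these genes and of the inhibitor that fell in low-Ttr cells are shown so that the searched motifs can be seen in place. Each runs from 250 bases before to 50 bases after a RefSeq start (GRCm38.p6) and is written 5′ to 3′ on the gene's strand, with matches to the searched motifs in capitals. Sfrp5 lies on the minus strand at chr19:42202203-42202502, and Wls on the plus strand at chr3:159839400-159839699.
Sfrp5: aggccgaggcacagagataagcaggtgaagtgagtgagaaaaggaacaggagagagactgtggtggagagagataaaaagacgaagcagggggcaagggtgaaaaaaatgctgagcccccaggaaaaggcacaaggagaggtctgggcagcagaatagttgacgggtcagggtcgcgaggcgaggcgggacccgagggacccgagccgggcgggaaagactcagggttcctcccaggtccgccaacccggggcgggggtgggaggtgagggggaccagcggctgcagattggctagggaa
Wls: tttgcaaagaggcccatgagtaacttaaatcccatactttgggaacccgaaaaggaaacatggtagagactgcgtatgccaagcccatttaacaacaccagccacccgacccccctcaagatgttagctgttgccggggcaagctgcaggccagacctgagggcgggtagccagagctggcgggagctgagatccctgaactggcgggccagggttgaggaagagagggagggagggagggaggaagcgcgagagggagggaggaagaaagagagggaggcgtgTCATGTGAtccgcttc
Both strands were searched for the Tcf and Lef motif, spelled CTTTGAT or alternatively CTTTGAA. They were also searched for the E-box bound by Mitf, spelled CACGTG or with a flanking base TCATGTG or else the form TCACATG, and for the Otx motif, spelled TAATCC or alternatively TAAGCC. The Mitf and Otx letters were added after the windows had been looked at, so the Wls match is a description of a chosen motif. The Sfrp5 window held 0 matches to any of them. The Wls window held 1 run in which TCATGTG and the reverse complement of TCACATG overlap, from base 35 after the start. Across 32817 windows of the same length, 8.65% held the Tcf and Lef motif, 13.4% the E-box and 15.8% the Otx motif. Windows were also found for Frzb, Axin2, Lef1 and Tcf7l2, none of which held a Tcf and Lef match. Of the 4 Lef1 windows, 1 held the E-box CACGTG at base -79. Of the 2 Tcf7l2 windows, 1 held GGATTA, the reverse complement of the Otx form TAATCC, at base -66. Sfrp1 and Dkk3 matched no window. A match in these letters is no measure of binding.

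In mature cells 3 of the 8 genes reached at least 1 UMI per 10000 in both mice. UMIs are counted once per transcript end, so levels of different genes carry no factor for length. Wls, the carrier, was highest, at 2.38 UMIs per 10000 in R1 and 2.63 in R2 (mean over cells). Sfrp1 followed at 2.09 and 1.90, and Sfrp5 at 1.34 and 1.57. The ranges of Wls and Sfrp1 over the mice did not overlap, and neither did those of Sfrp1 and Sfrp5, although 2 mice cannot give a test of this order. Among all genes with a UMI in mature cells, Wls ranked 491 in R1 and 445 in R2, Sfrp1 590 and 658, and Sfrp5 929 and 788. Within the list of 120 Wnt pathway genes these genes held ranks 2, 5 and 7 by mean level. The highest of that list was Sostdc1, another secreted inhibitor of Wnt and BMP signaling, at 7.59 and 7.81.

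The other 5 genes were at or below 0.208 UMIs per 10000 in mature cells. Dkk3 stood at 0.208 in R1 and 0.115 in R2, the widest gap between the mice as a ratio among the members with more than 200 UMIs in each. Tcf7l2, a nuclear partner of beta-catenin, stood at 0.142 and 0.146, and Axin2 at 0.0905 and 0.0860. Frzb gave 12 UMIs in R1 and 16 in R2, and Lef1 gave 1 in each mouse. Values of Frzb and Lef1 rest on so few transcripts that the order of these genes below Axin2 is all that can be read.

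**Figure D1:**
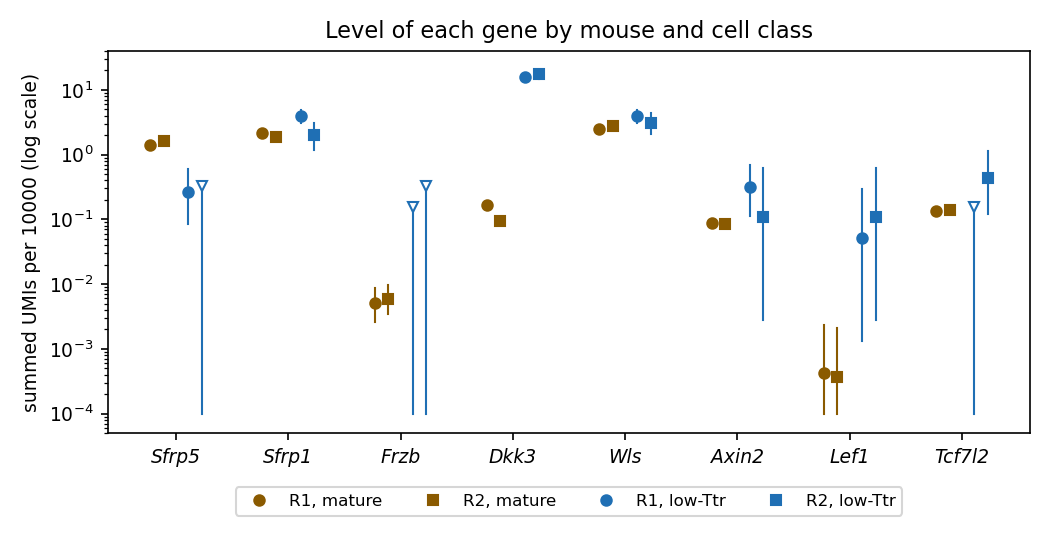
Summed UMIs per 10000 of each gene (log axis) in mature and low-Ttr cells, with circles for R1, squares for R2 and lines for the exact 95% Poisson interval, which covers counting error only; open triangles mark the level of 3 UMIs, taken as the limit where none was counted, and lines are drawn from 0.0001. Dkk3 stands far above its mature level in the low-Ttr cells of both mice, and Sfrp5 stands below it.

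The share of mature cells with at least 1 UMI followed the levels. Wls was found in 72.1% of mature cells of R1 (exact 95% interval 70.3 to 73.8) and 67.4% of R2, Sfrp1 in 67.7% and 59.5%, and Sfrp5 in 50.8% and 52.1%. Dkk3 was found in 10.0% and 5.37%, Tcf7l2 in 8.50% and 8.20%, Axin2 in 6.28% and 5.30%, and Frzb in 0.306% and 0.389%. With every cell thinned to 2000 UMIs the shares fell to 34.6% and 35.6% for Wls, 31.4% and 27.9% for Sfrp1 and 20.7% and 23.0% for Sfrp5. A missing UMI in 1 cell is therefore no evidence that the cell lacks the transcript.

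Sfrp5 was spread unevenly over mature cells. After thinning to 5000 UMIs, which left 2017 cells of R1 and 1826 of R2 and dropped 594 and 1002 shallower cells, Sfrp5 had a variance over mean of 1.88 and 1.80. The median over 3835 genes found in at least 10% of cells was 1.39 and 1.48, and Sfrp5 ranked 201 and 207 from the top. These genes were not matched to Sfrp5 in level, and the part of level in the rank was not tested. A Poisson spread around its mean would place Sfrp5 in 49.5% and 54.0% of these cells, and 40.8% and 43.7% held it. Wls had a variance over mean of 1.74 and 1.65, and Sfrp1 of 1.59 and 1.64. The gap to a Poisson spread was not particular to Sfrp5. Wls was in 64.3% and 63.1% of these cells against 70.7% and 73.8% under Poisson. Sfrp1 was in 58.8% and 52.2% against 66.5% and 61.6%. The deepest counts in single cells reached 28 Sfrp5 UMIs in R1 and 36 Wls UMIs in R1. For Tcf7l2, 1 cell held 13 of its 317 UMIs in R1 and 1 cell held 17 of 376 in R2.

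**Figure D2:**
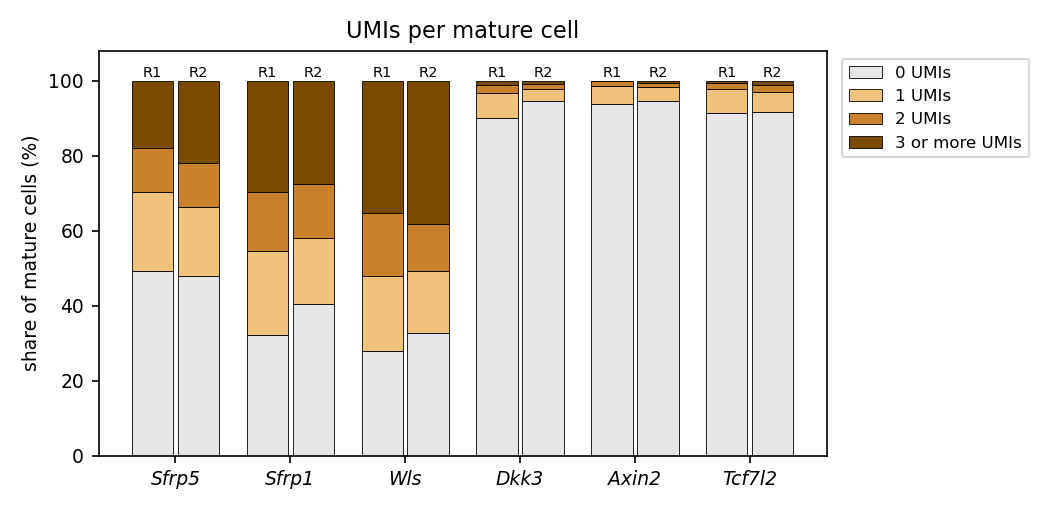
Share of mature cells (in percent) holding 0, 1, 2 or 3 and more UMIs of each gene, for R1 and R2, without thinning. Wls, Sfrp1 and Sfrp5 reach 3 or more UMIs in many cells, whereas most mature cells hold none of Dkk3, Axin2 or Tcf7l2.

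Levels of Sfrp5 and Wls differed little with depth, and those of Dkk3 differed more. From the shallowest to the deepest of 4 equal groups of mature cells by total UMIs, Sfrp5 went through 1.25, 1.23, 1.38 and 1.51 UMIs per 10000 in R1 and through 1.62, 1.46, 1.52 and 1.67 in R2. Wls lay between 2.07 and 2.52 in R1 and between 2.36 and 2.85 in R2. Dkk3 fell with depth in R1, through 0.303, 0.248, 0.209 and 0.0729, and went through 0.101, 0.206, 0.0850 and 0.0700 in R2.

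No joint variation of the genes from cell to cell was detected, in counts too sparse to exclude it. All correlations are across mature cells thinned to 5000 UMIs, which share a library within a mouse, and are given as descriptions. Of 28 pairs, 0 passed 0.1 in size in both mice, and Lef1 had no UMI left in the thinned cells of R2, so its pairs have no value there. The limit was also passed by 0 of 3834 other genes for Sfrp5, Sfrp1 or Wls. Mean counts in thinned cells of R1 were 0.0892 UMIs for Dkk3 and 0.0481 for Axin2. The count of 0 pairs is therefore no result particular to these genes. Sfrp5 and Frzb reached 0.046 in R1 and 0.060 in R2, and Sfrp5 and Sfrp1 reached 0.049 and -0.040. Over cells with 0, 1, 2 to 3 and at least 4 Sfrp5 UMIs, mean Sfrp1 went through 1.02, 1.17, 1.29 and 0.953 UMIs in R1 and through 1.00, 0.889, 0.956 and 0.742 in R2, with 43 and 62 cells in the last group. The mice did not share an order.

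**Figure D3:**
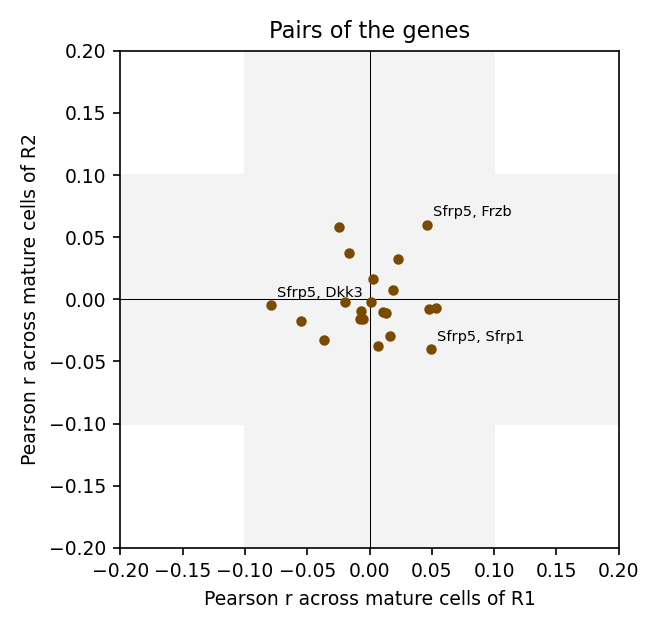
Pearson correlation of each pair of genes across thinned mature cells of R1 (x axis) and R2 (y axis), with 1 point per pair that has a value in both mice. The grey bands mark sizes up to 0.1, and every point lies inside both.

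Among 3834 other genes, the closest to Sfrp5 was Igfbp2, which encodes a secreted binding protein of insulin-like growth factors, at r = 0.179 in R1 and 0.0977 in R2. Ctsd (0.0966 and 0.109), a lysosomal protease, and Rdh5 (0.123 and 0.0824), a retinol dehydrogenase of the visual cycle, came next. Mdk and Igfbp5 were the most opposite to Sfrp5, at -0.080 and -0.072 for Mdk. Sfrp1 was closest to Malat1 (0.0835 and 0.0743), Apoe and mt-Cytb, and Wls to Clu (0.0947 and 0.141), Rgr and Ctsd. No gene passed 0.1 in both mice for Sfrp5, Sfrp1 or Wls, and weak values of this size in sparse counts were not read as relations.

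Among the 6 members tested, the difference between low-Ttr and mature cells was largest in Dkk3. Their Dkk3 level was 15.2 UMIs per 10000 in R1 and 15.5 in R2, against 0.208 and 0.115 in mature cells, so Dkk3 was higher in the low-Ttr class of each mouse. Dkk3 UMIs were found in 54 of 59 low-Ttr cells of R1 and 16 of 19 of R2, and a single cell held up to 26 in R1 and 48 in R2. Cells without markers of another type carried Dkk3 in 98.1% and 100% of cases. The types counted for this did not include the ciliary and peripheral eye. Its 7 genes summed to 10.3 UMIs per 10000 in R1 and 9.04 in R2 in these cells, against 0.413 and 0.322 in mature cells. Pax6 made up 7.74 and 4.66 of these sums, and 5 of the 54 cells of R1 and 5 of the 16 of R2 carried at least 3 of the genes. Summed over cells, Dkk3 was 93.5 times as frequent as in mature cells of R1 (exact 95% interval 80.3 to 109) and 187 times in R2 (152 to 229). In edgeR's quasi-likelihood test with the mouse as a block, Dkk3 rose by 6.29 on the log2 scale (SE 0.410, Benjamini-Hochberg adjusted p = 7.39e-50), higher in 2 of 2 mice.

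Sfrp5 went the other way. Its level was 0.282 UMIs per 10000 in low-Ttr cells of R1, from 5 UMIs in 5 cells, and 0 UMIs were counted in the 19 cells of R2. With 3 cells taken as the limit, that count of 0 allows up to 15.8% of cells to hold a UMI. It says nothing of cells whose transcripts were not captured. At the mature frequency 14.7 UMIs would have been counted in R2. The count ratio to mature cells was 0.185 in R1 (0.0600 to 0.432), and in R2 Sfrp5 was at least 4.90-fold lower, taking 3 UMIs as the limit that a count of 0 allows. The fitted edgeR difference was -3.84 on the log2 scale (SE 0.616, adjusted p = 2.13e-08), lower in 2 of 2 mice, and since R2 is at 0 its size depends on the prior count.

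The remaining tested genes did not pass the test. Sfrp1 was at 4.28 UMIs per 10000 in low-Ttr cells of R1 and 2.56 in R2, and Wls at 3.78 and 2.23. Sfrp1 had a count ratio of 1.87 in R1 (1.47 to 2.34) and 1.05 in R2 (0.621 to 1.66), and Wls one of 1.60 and 1.13. On the TMM scale of edgeR these became log2 differences of -0.18 for Sfrp1 (SE 0.372, adjusted p = 0.866) and -0.28 for Wls (SE 0.359, adjusted p = 0.774), and without TMM they were 0.57 and 0.47. No direction can be given for Sfrp1 or Wls, because TMM shifts all genes: the median log2 difference was -0.34 with it and 0.38 without it. Axin2 gave 6 UMIs in low-Ttr cells of R1 and 1 in R2, with a difference of 0.69 (adjusted p = 0.806). Tcf7l2 gave 0 and 4 UMIs, with -0.61 (adjusted p = 0.830) and opposite signs in the mice. Frzb, at 0 in low-Ttr cells of both mice, and Lef1, at 1 UMI in each, did not pass the filter on low counts.

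In all, 2 of the 6 members tested were called, Dkk3 higher and Sfrp5 lower. Over 11494 genes edgeR called 1204, a share of 10.5%, with 4.25% higher and 6.23% lower in low-Ttr cells. The members were chosen with earlier results of these data known, so 2 of 6 beside this share is a description. Dkk3 in the 54 and 16 cells without markers of another type was 16.5 and 18.4 UMIs per 10000. Sfrp1, Sfrp5, Frzb, Axin2 and Lef1 were at 0 in the fibroblast-marked and microglia-marked cells of both mice. With 3 and 2 such cells in R1 and 2 and 1 in R2, these counts of 0 say little, and Frzb was at 0 in all low-Ttr cells. In R1, 1 fibroblast-marked cell held 2 Wls UMIs and another held 1 Dkk3 UMI. In R2, 1 fibroblast-marked cell held 1 Tcf7l2 UMI. The 6 genes of the dissociation response summed to 4.21 UMIs per 10000 in low-Ttr cells of R1 and 21.2 in R2, against 0.642 and 2.06 in mature cells. In the low-Ttr cells without markers of another type the same genes summed to 1.88 in R1, above the mature value, and to 0.679 in R2, below it. A link of these genes to Dkk3 was not tested.

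**Figure D4:**
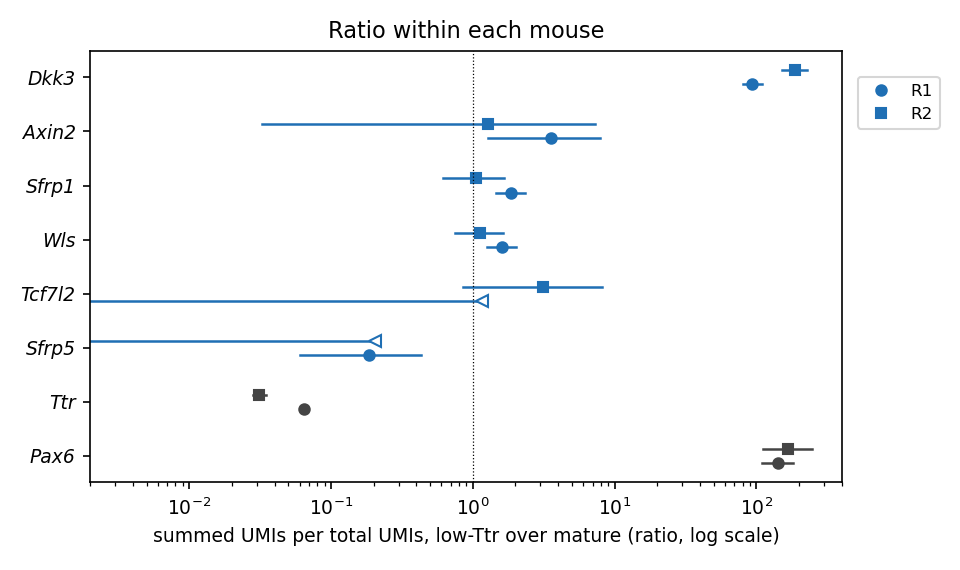
Frequency of each gene's UMIs in low-Ttr cells over mature cells of the same mouse (log axis, 1 marked by a dotted line), with R1 as circles, R2 as squares and exact 95% intervals for counting error; open triangles mark the limit of 3 UMIs where low-Ttr cells held none. Ttr divided the cells and is low by that rule. Dkk3 lies near Pax6, Sfrp5 lies below 1 in both mice, and the intervals of Sfrp1, Wls, Axin2 and Tcf7l2 cross 1 in R2.

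Mature cells were also divided by their Dkk3 UMIs, a division added after the values had been seen. In R1, 2350 mature cells held 0, 177 held 1 and 84 held at least 2 Dkk3 UMIs, and in R2 2676, 91 and 61. Sfrp5 ran through 1.37, 1.26 and 0.688 UMIs per 10000 across these cells in R1 and through 1.58, 1.36 and 1.13 in R2. Dct, a melanin synthesis enzyme, ran through 8.73, 12.4 and 19.4 in R1 and through 6.26, 8.60 and 9.29 in R2. Sfrp5 was lower and Dct higher with more Dkk3 UMIs in this division of both mice. The counts were not thinned. Median totals of the groups were 8379.5, 8977 and 8202.5 UMIs in R1 and 7605.5, 9861 and 9229 in R2. The correlation of Sfrp5 and Dkk3 over thinned cells was -0.079 in R1 and -0.0045 in R2, both under 0.1 in size. For Sfrp5 the 99th percentile of size over 3834 other genes was 0.0749 in R1 and 0.0663 in R2. Over thinned cells with 0, 1, 2 to 3 and at least 4 Sfrp5 UMIs, mean Dkk3 went through 0.117, 0.0466, 0.0526 and 0.0465 UMIs in R1. In R2 it went through 0.0438, 0.0475, 0.0306 and 0.0968, with 43 cells of R1 and 62 of R2 in the last group. The mice did not share an order here, so no relation common to both was read from the division. The median doublet score was 0.108 in R1 and 0.150 in R2 among cells without Dkk3, and 0.243 and 0.200 among cells with at least 2 Dkk3 UMIs, and its part in these values was not tested.

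Of the 120 Wnt pathway genes, 65 passed the filter and 12 were called, 5 higher and 7 lower, which is 18.5% beside 10.5% over all genes tested. Without the 8 members 10 of 59 were called, or 16.9%. The list was chosen with earlier results of these data known, so these shares are descriptions and no independent test. The 5 higher genes include Tpbg and Wnt16, which passed the filter only through their counts in low-Ttr cells. The median log2 difference of the 65 genes was -0.18, and 0.069 without the members, beside -0.34 over all tested genes. Among secreted inhibitors 3 of 4 tested were called: Dkk3, Sfrp5 and Sostdc1, which fell from 7.59 and 7.81 UMIs per 10000 to 0.855 and 0.381 (log2 difference -3.88, adjusted p = 1.63e-17). Among receptors 2 of 12 were called (16.7%), both lower: Fzd4, a Frizzled receptor, at -1.72 (adjusted p = 0.0163), and the co-receptor Lrp5. Fzd4 rested on 7 and 6 low-Ttr UMIs, with count ratios of 0.379 in R1 (0.152 to 0.782) and 0.698 in R2 (0.256 to 1.52). Lrp5 had 0 UMIs in low-Ttr cells of both mice. At the mature frequency only 4.45 in R1 and 1.79 in R2 would have been counted, so the 0 in R2 carries little. The 2 cytoplasmic genes called of 20 tested, a share near that over all genes, were also lower, Nlk at -3.61 and Amer1. Nlk rested on 2 low-Ttr UMIs in R1 and 1 in R2, where 15.8 and 6.86 would have been counted at the mature frequency. Amer1 gave 0 UMIs in low-Ttr cells, where 4.92 in R1 and 2.09 in R2 would have been counted at the mature frequency.

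Beside Dkk3, the genes that rose were 2 membrane inhibitors, 1 target and 1 ligand. Shisa2, which holds Frizzled receptors inside the cell, rose from 0.0884 and 0.0887 to 1.04 and 2.05 UMIs per 10000 (3.94, adjusted p = 6.71e-12). Its low-Ttr UMIs came from 7 cells of R1 (11.9%) and 6 of R2 (31.6%), so most low-Ttr cells showed none. Tpbg rose by 5.02 (adjusted p = 0.0354) on 2 and 4 low-Ttr UMIs against 14 and 7 mature ones. Both low-Ttr Tpbg UMIs of R1 and 2 of the 4 of R2 came from cells with markers of another type. Bambi, a pseudoreceptor of BMP and TGF-beta signaling, rose by 4.49 (adjusted p = 2.61e-09), and Ccnd1, which encodes cyclin D1 and is often listed as a Wnt target, fell by 2.78 (adjusted p = 1.06e-07). Wnt16, 1 of 3 ligands tested, gave 6 and 8 UMIs in low-Ttr cells and 0 and 1 in mature cells. Tpbg and Wnt16 passed the filter on low counts only through the class where they are high, so their calls are descriptions.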

How the data were processed

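Counts per gene and cell of 2 mice were used as deposited by the authors, who ran bcl2fastq 2.20.0.422 and Cell Ranger 1.2.0 on GRCm38. Sources differ on the chemistry version of the capture kit. SoupX was not used here. Cells with at least 500 genes and at most 5% mitochondrial UMIs were kept, and the top 4% by a doublet score computed here were removed. Levels are UMIs per 10000. Summed counts per mouse and class were tested in edgeR 4.0.16 (R 4.3.3) with TMM, filterByExpr, mouse as blocking term, since both classes come from the same mice, and p-values adjusted by Benjamini-Hochberg at 0.05. The SE given with an edgeR log2 difference was derived here, as its size over the square root of the F statistic. The quasi-likelihood test itself gives none. DESeq2 1.42.0 was an alternative. The 8 genes, the Wnt list and the marker lists were chosen with earlier results of these data known. Named genes were the 8, every called list gene with the same direction in both mice, and the 3 closest and most opposite genes of each member found in at least 10% of cells. The level of 1 UMI per 10000 used for counting genes, the motifs other than Tcf and Lef, and the Dkk3 division were set after values had been seen. Intervals and limits cover counting error only.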

Additional observations from a re-analysis of the deposited data

How the results depend on the processing

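Dkk3 and Sfrp5 were the 2 genes called in each of the 11 refitted alternatives. With these and the values of each mouse alone, their log2 differences ranged from 5.95 to 7.55 and from -5.76 to -2.30, and the adjusted p of Sfrp5 was at most 0.000384. The alternative that subtracted an assumed 10% of UMIs as RNA from outside the cell gave 6.44 for Dkk3 and -5.10 for Sfrp5. The genes called over all tested ranged from 921 in DESeq2 to 2247 with no replicate block (pairing of the mice dropped), beside 1204. Without TMM 1488 were called, 74.1% of them higher, against 40.5% in the main fit with TMM and 54.2% in DESeq2. The shares of all genes called higher and lower therefore depended on the normalization. Sfrp1, Wls and Tcf7l2 changed sign: without TMM to 0.57, 0.47 and 0.15; in R1 alone Sfrp1 and Wls to 0.31 and 0.084; in R2 alone Tcf7l2 to 0.93. The other mouse alone gave -0.78, -0.68 and -2.97. These values within 1 mouse use TMM-scaled totals, a form taken after both had been seen. On plain totals, an alternative added later, R1 alone gave 0.91 for Sfrp1 and 0.69 for Wls, and R2 alone gave 0.11, 0.21 and 1.82 for Sfrp1, Wls and Tcf7l2. The cause was not tested, except that TMM moves all genes together. With 1 mouse left out no test is possible, so no count of calls exists. Axin2 and Tcf7l2 gave 6 UMIs or fewer in the low-Ttr cells of a mouse, which limits the precision of their differences.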
